A study of Mus musculus with 2 samples.

Results

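Distal peaks, intervals of open chromatin lying more than 50 kb from every gene start used by the mapping pipeline, were described in nuclei of femoral marrow stroma from young mice. A member was a peak of the joint matrix on chromosomes 1 to 19 whose interval lay more than 50 kb from the interval listed for each gene on its chromosome, and 43790 of 203545 peaks met this rule. Those gene intervals were found to be ranges of transcription start sites, with a median length of 1 base, and not gene bodies. The distance is therefore one from gene starts, and 48.9% of the distal peaks overlapped the body of a listed gene.

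RNA and open chromatin (ATAC) were measured in the same nuclei with the 10x Multiome assay, with 1 library of each kind. The nuclei came from sorted tdTomato+ cells of femurs of mice that carried Prrx1-cre; R26R(tdTomato/+), collected at postnatal day 21, after the distal epiphyseal growth plates were removed and the proximal ends cut off, and about 15000 were loaded. Prrx1-cre switches on the red reporter in limb bud mesenchyme and all that descends from it, so reporter expression marks descent and not a current cell state, and cells of other origin that pass the sort stay in the sample. Littermates of both sexes were pooled into this 1 sample. No group was therefore replicated, no difference below was tested between animals, and each value carries an exact 95% interval for counting error only. Because a fragment with both ends in a peak gives 2 counts, these intervals are too narrow.

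The files held 191398837 ATAC counts over 728634 barcodes. Of 4663 barcodes with at least 500 RNA molecules (UMIs) and at least 1000 ATAC counts, 3236 were removed by a limit of 10% mitochondrial UMIs, and the 1427 nuclei kept held 39355191 ATAC counts with a median of 24027 per nucleus. RNA of marker lists placed nuclei in 4 stromal classes, namely 357 reticular-like (Cxcl12-abundant, leptin receptor-positive marrow stroma), 139 osteoblast-like, 18 chondrocyte-like and 27 mural-like nuclei (pericytes and smooth muscle). It also placed 74 granulocyte-like, 69 erythroid-like, 20 macrophage- or osteoclast-like and 34 B-lymphoid-like nuclei, which a sort for stromal cells would not be meant to hold. No T or NK nucleus passed its gate, and 637 nuclei (44.6%) passed none. These classes are ranges of a score and not discrete types. For the osteoblast gate, the limit was over 0.8 of the score in 57 of its 139 nuclei, and 80 nuclei outside it reached 0.8 of the limit, against 18 and 40 for the reticular gate. The chondrocyte-like nuclei also held a median of 3803 CPM of the osteoblast list, beside 35533 CPM of their own, and the reticular-like nuclei 1816 CPM of the osteoblast list beside 8644 of their own.

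Peaks far from gene starts mostly represent enhancers, silencers and insulators, short stretches of DNA that bind transcription factors and act on promoters over long distances by looping. Enhancers are in general more restricted to a cell type than promoters, which are open in most tissues. Skeletal regulators such as Sox9 and Bmp2 sit in broad gene-poor regions known for long-range enhancers, and GATA factors in red cell precursors, PU.1 in myeloid cells, AP-1 in many activated or differentiating cells and RUNX factors in bone are known users of such sites.

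The central 300 bases of 10 distal peaks described below are printed first, 5′ to 3′ on the plus strand of mm10 (RefSeq GRCm38.p6). They are the peak of highest class ratio in each of the 8 classes, the osteoblast-like peak nearest to Cxcl12, and the peak farthest from any gene start. That last peak was taken from those with at least 50 counts over all nuclei, but held too few counts in the classes to be compared. Capitals mark exact matches on either strand to short consensus words: RUNX as TGTGGT, SOX as ACAAAG or as ACAATG, AP-1 as TGANTCA, the GATA family as AGATAA, ETS as CGGAAG, PU.1 as AGAGGAAG, TEAD as GGAATG, homeobox as TAATTA, CEBP as TTGCNNAA, FOX as TGTTTAC and E-box as CAGCTG, with EBF, CTCF, MEF2 and NFI searched by longer words. No word is contained in another, and a match is a description of letters and not a bound site. The erythroid-like peak held GATA words at 2 places and the macrophage- or osteoclast-like peak AP-1 words at 2, the chondrocyte-like and mural-like peaks held 1 AP-1 word each, and the peak near Cxcl12 held SOX words at 3. The reticular-like and granulocyte-like peaks held none of the words and so have no capitals.
Reticular-like, chr2:48734469-48734768: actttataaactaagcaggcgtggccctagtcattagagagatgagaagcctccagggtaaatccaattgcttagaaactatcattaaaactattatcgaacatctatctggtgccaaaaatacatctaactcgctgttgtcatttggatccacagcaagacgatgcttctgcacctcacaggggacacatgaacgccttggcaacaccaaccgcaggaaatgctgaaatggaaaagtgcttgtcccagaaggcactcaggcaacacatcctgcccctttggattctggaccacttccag
Osteoblast-like, chr10:111652545-111652844: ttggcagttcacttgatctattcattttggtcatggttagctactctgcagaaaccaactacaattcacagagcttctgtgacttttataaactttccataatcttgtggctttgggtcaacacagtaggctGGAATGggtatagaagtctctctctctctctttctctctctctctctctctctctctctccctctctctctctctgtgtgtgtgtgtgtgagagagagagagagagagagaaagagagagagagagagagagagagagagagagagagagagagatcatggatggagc
Osteoblast-like near Cxcl12, chr6:117266235-117266534: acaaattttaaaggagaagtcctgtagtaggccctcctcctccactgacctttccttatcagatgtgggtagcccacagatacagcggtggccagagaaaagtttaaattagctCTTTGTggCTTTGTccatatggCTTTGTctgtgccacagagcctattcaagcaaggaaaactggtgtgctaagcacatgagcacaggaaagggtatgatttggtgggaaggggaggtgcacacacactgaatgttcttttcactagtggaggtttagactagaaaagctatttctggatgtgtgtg
Chondrocyte-like, chr19:56935139-56935438: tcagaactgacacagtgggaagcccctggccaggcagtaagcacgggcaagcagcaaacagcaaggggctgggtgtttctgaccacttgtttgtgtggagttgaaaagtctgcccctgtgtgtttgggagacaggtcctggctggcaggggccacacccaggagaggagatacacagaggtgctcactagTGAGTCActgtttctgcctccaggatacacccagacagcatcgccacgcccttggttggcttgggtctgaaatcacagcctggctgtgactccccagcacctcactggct
Mural-like, chr14:69089194-69089493: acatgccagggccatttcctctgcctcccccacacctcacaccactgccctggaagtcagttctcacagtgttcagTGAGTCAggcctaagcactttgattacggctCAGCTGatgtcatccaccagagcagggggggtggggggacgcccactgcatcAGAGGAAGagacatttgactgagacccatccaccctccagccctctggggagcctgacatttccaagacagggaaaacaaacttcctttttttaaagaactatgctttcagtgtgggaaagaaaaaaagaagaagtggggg
Erythroid-like, chr5:23922775-23923074: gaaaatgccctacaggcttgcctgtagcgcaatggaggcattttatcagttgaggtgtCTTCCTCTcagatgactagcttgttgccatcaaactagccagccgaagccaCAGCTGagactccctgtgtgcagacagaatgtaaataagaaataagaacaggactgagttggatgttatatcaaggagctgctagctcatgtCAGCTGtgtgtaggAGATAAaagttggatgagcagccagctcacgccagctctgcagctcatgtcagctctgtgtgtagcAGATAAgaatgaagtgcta
Granulocyte-like, chr5:90696179-90696478: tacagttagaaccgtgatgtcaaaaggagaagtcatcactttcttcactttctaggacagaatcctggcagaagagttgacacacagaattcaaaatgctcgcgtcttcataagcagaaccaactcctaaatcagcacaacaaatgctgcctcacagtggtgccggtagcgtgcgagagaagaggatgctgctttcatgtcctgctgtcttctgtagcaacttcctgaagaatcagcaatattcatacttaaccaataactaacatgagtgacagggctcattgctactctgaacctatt
B-lymphoid-like, chr10:41385723-41386022: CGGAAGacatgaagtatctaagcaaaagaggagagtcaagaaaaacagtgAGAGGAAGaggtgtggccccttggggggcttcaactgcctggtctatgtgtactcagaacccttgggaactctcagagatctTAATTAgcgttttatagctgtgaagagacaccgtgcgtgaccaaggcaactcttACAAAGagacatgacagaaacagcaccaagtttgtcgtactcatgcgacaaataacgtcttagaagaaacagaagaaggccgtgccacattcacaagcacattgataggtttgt
Macrophage- or osteoclast-like, chr1:152536499-152536798: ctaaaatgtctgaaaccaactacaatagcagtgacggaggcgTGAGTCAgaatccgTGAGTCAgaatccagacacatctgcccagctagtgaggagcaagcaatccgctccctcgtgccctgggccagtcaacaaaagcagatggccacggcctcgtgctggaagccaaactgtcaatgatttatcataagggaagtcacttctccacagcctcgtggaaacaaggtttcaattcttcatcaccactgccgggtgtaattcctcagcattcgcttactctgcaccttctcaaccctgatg
Farthest from a gene start, chr3:77734480-77734779: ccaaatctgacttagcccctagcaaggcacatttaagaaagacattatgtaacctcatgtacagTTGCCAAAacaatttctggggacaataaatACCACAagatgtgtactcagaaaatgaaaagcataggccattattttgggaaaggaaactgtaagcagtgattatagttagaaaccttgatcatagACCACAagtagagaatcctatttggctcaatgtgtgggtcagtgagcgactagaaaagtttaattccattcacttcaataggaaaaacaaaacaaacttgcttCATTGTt

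Distal peaks were numerous but shallow. They made up 22.0% of the peaks on chromosomes 1 to 19 and held 10.6% of the ATAC counts there, whereas the 39982 peaks within 1 kb of a gene start (promoter peaks) made up 20.1% and held 55.1%. The median distal peak held 44 counts over all nuclei (quartiles 23 and 96), against 120 for a promoter peak and 54 for the 115221 peaks at 1 to 50 kb. Only 15 distal peaks held no count in a nucleus. Counts were concentrated: the 438 distal peaks with most counts, the top 1%, held 13.4% of distal counts, and the top 10% held 47.4%.

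Members thinned out with distance. There were 24512 peaks at 50 to 100 kb, 13162 at 100 to 200 kb, 5394 at 200 to 500 kb and 722 beyond 500 kb, and the median GC content of their central 300 bases fell from 46.0% to 44.7%, 43.0% and 40.3%, against 52.7% at promoter peaks. Peak width hardly moved, with a median of 880 bases for distal and 873 for promoter peaks. A separately deposited list of 153981 intervals overlapped 71.5% of distal peaks and 80.4% of all peaks on these chromosomes. Of the distal peaks, 6.16% overlapped an annotated exon, 42.7% lay in introns alone and 51.1% were intergenic, and 38.1% lay more than 50 kb from every gene body as well. The limit of 50 kb marked no step: 36.8% of the 1115 peaks measured at 50 to 55 kb and 36.2% of the 1255 at 45 to 50 kb were high in some stromal class by the rule given below, and the nearest members and non-members lay 50001 and 49999 bases from a start.

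Distal peaks were rarest on chromosomes 11 and 19 (16.4% of the peaks on each) and commonest on chromosome 18 (30.7%). Genes with the most distal peaks inside their bodies were long ones, with 114 in Rad51b, a recombination gene, 105 in Gpc6, a glypican, 100 in Wwox and 77 in Ebf1, a transcription factor of B cells and marrow stroma. Pseudogenes and small RNAs absent from the gene table did not count for the rule, and 43.0% of members lay within 50 kb of the start of some GENCODE gene, most often a processed pseudogene.

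The share of ATAC counts in distal peaks was higher in stromal-like than in blood-like nuclei. It was 10.4% over all nuclei, 11.7% in reticular-like, 12% in osteoblast-like, 11.7% in chondrocyte-like and 10.4% in mural-like nuclei, against 3.20% in erythroid-like, 5.31% in B-lymphoid-like, 5.99% in granulocyte-like and 6.65% in macrophage- or osteoclast-like nuclei. The widest exact 95% interval in these classes ran from 11.6% to 11.8% (chondrocyte-like), so counting error alone did not cover the gap. These intervals pool all counts of a class and do not measure the spread between nuclei or animals. Over single nuclei the stromal medians were again above the blood medians, although the order within each side changed, with medians of 11.9% per reticular-like nucleus (quartiles 10.6% and 13.0%), 11.3% per osteoblast-like nucleus (7.93% and 13.3%) and 2.35% per erythroid-like nucleus (1.75% and 3.12%). Nuclei of the 2 sides did overlap, the lowest reticular-like nucleus being at 3.92% and the highest granulocyte-like one at 16.2%.

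Promoter shares were also larger in erythroid-, granulocyte- and B-lymphoid-like nuclei (74.2%, 63.1% and 62.5%, against 46.5% to 53.6% in the stromal classes and 53.3% in macrophage- or osteoclast-like nuclei), so the distal share was taken over counts outside promoter peaks. It was then 23.8%, 24.7%, 21.9% and 22.3% in the reticular-, osteoblast-, chondrocyte- and mural-like classes, and 12.4%, 16.2%, 14.1% and 14.2% in the erythroid-, granulocyte-, B-lymphoid- and macrophage- or osteoclast-like classes. Median ATAC counts per nucleus overlapped between the sides. They were 63623 in chondrocyte-, 37008 in reticular-, 28467 in osteoblast- and 22164 in mural-like nuclei. On the blood side they were 41696 in macrophage- or osteoclast-, 30743 in B-lymphoid-, 13956 in erythroid- and 11826 in granulocyte-like nuclei. The peaks had been called on a pool in which reticular-like nuclei held 12614409 counts against 1189162 for erythroid-like ones. The parts of depth and of peak calling in the difference were not tested. Barcodes too poor to be nuclei, with under 500 ATAC counts and under 400 UMIs, had 10.2% of their counts in distal peaks, close to the value over all nuclei.

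**Figure D1:**
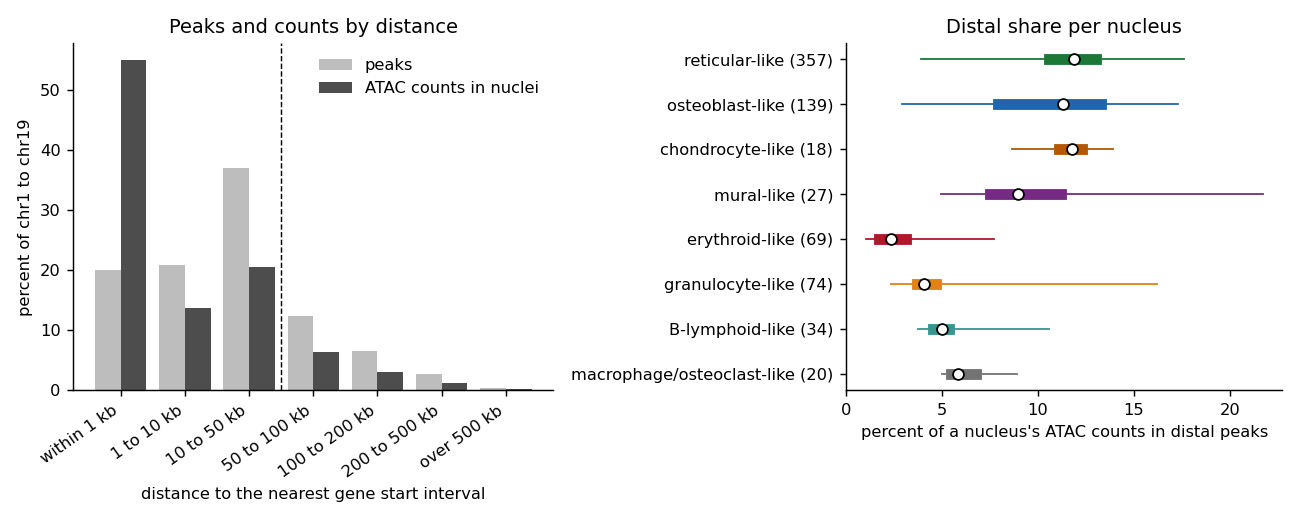
Left, percent of peaks and of ATAC counts on chromosomes 1 to 19 (y axis) by distance from the nearest gene start (x axis), with distal peaks right of the dashed line. Right, percent of a nucleus's ATAC counts in distal peaks (x axis) for each class (y axis), where dots are medians, thick bars quartiles and thin lines the range, with medians of 8.98% to 11.9% in stromal-like and 2.35% to 5.85% in blood-like classes.

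A single peak took 1.19% of all distal counts. It lay at chr11:109011363-109012311, intergenic, 69.3 kb from Gm11670, with a GC content of 63.3%, and held 48896 counts in 89.0% of the nuclei, whereas the next held 9156 (chr10:11491674-11492572) and 7709 (chr2:5378823-5379765, in an intron of Camk1d). The first peak held counts in every class, with 0.154% of the ATAC counts of osteoblast-like nuclei, 0.0819% of reticular-like and 0.0578% of B-lymphoid-like. In barcodes too poor to be nuclei it held 0.189% of the counts. Its highest level was thus outside nuclei, and whether its counts reflect open chromatin was not tested. Left out with the other 2, the distal share over all nuclei was 10.3%.

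To ask which distal peaks differed between cell types, ATAC counts were summed over the nuclei of each class and expressed relative to the total of counts in peaks of the class (as CPM). A peak was called class-high where its CPM was at least 4-fold that of the classes it was set against, pooled, with at least 10 counts in the class and at least 50 counts over the classes compared. Stromal classes were compared with each other and each blood class with the pooled stromal classes. The minimum was reached by 11360 of the 43790 distal peaks for the stromal comparison and by 11567 to 11690 for the blood comparisons, so that 25.9% of the members were measured between stromal classes. A class with more counts reaches both minima more easily, and the reticular-like class was the deepest.

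Reticular-high and osteoblast-high peaks made up a larger share of distal peaks than of all peaks. Of the distal peaks measured, 2789 (24.6%) were reticular-high, where the background over all peaks was 14.7%, and 1311 (11.5%) were osteoblast-high, where it was 7.21%. The chondrocyte-high count was 463 (4.08%) beside a background of 4.02%, and the mural-high count 165 (1.45%) beside 1.37%, shares close to the background. With no mitochondrial limit the reticular- and osteoblast-high shares were 14.1% and 13.4%, each still above its background of 8.93% and 9.04%, but the gap between the classes closed. The chondrocyte-high count was 3505 from 158 nuclei with no mitochondrial limit and 194 from 10 nuclei without the 5% of nuclei with most ATAC counts. Blood-high peaks were rarer among distal peaks than among all: 109 were erythroid-high (0.942% against a background of 2.89%), 177 granulocyte-high (1.51% against 2.96%), 279 B-lymphoid-high (2.39% against 4.33%) and 239 macrophage- or osteoclast-high (2.05% against 3.86%).

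With distance from gene starts the reticular-high share rose in every step, from 5.93% within 1 kb and 15.2% at 1 to 10 kb to 21.8% at 50 to 100 kb, 27.6% at 100 to 200 kb, 30.0% at 200 to 500 kb and 36.3% of the 146 peaks measured beyond 500 kb. The osteoblast-high share went from 3.63% within 1 kb to 13.7% at 200 to 500 kb and was 11.0% beyond. Erythroid-high peaks went the other way beyond 10 kb, from 4.54% at 1 to 10 kb to 1.17% at 50 to 100 kb and to 0 of 147 beyond 500 kb.

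Within ranges of like total counts the order was the same for the reticular-like class. Among peaks with 100 to 200 counts over the stromal classes, 27.5% of 3320 distal peaks were reticular-high, against 18.8% at 1 to 50 kb and 10.8% within 1 kb. Among those with 200 to 400 counts the shares were 30.4%, 20.9% and 5.96%. For the osteoblast-like class, the shares at 100 to 200 counts were 9.22%, 7.11% and 5.11%. Reticular-like nuclei held 12614409 counts, against 4157083, 1135407 and 672954 in osteoblast-, chondrocyte- and mural-like nuclei. The totals were thus mostly reticular-like counts, so these ranges do not match peaks independently of the class. The part of depth in the rise with distance was not tested.

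**Figure D2:**
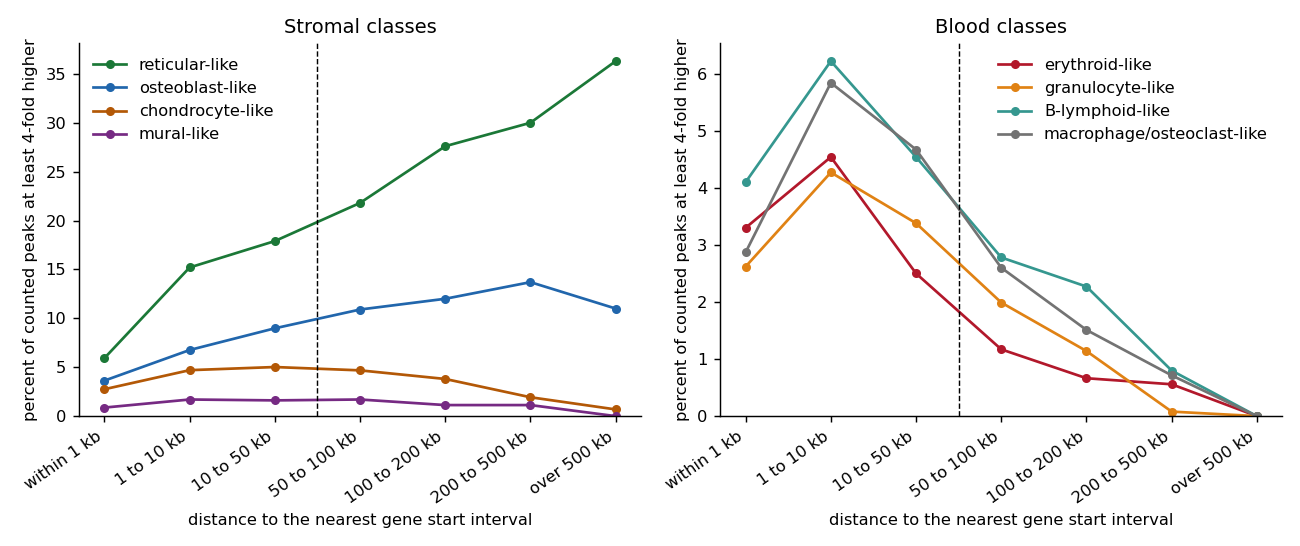
Percent of measured peaks called class-high (y axis) by distance from the nearest gene start (x axis), for the stromal classes (left) and blood classes (right), with distal peaks right of the dashed line. The reticular line climbs from 5.93% within 1 kb to 36.3% beyond 500 kb, while the erythroid line drops to 0.

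Most distal peaks called in a stromal class were called in 1 class alone (4586), and 71 were called in 2. Of these, 56 were shared by the osteoblast- and chondrocyte-like classes, which is 4.27% of the osteoblast-high and 12.1% of the chondrocyte-high peaks. Granulocyte- and macrophage- or osteoclast-high peaks shared 32 (18.1% and 13.4% of each list), and 96 peaks were called on both the stromal and the blood side. The rule itself limits overlap between stromal classes, because each was set against the others pooled. Overlaps were not counted over all peaks, so they cannot be read as particular to distal peaks. In all, 4657 distal peaks (41.0% of those measured) were high in a stromal class, against 26.7% of all peaks and 12.8% of promoter peaks, and 721 (5.89%) in a blood class, against 11.0% of all peaks.

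Class-high members differed in position and base composition. Reticular-high distal peaks were AT-rich, with a median GC content of 43.7%, and lay a median of 96.2 kb from a gene start, with 15.3% beyond 200 kb. Erythroid-high ones had a median GC content of 51.0%, lay in a gene body in 68.8% of cases and beyond 200 kb in 6.42%. For comparison, the median over the distal peaks measured between stromal classes was 45.7% GC and 87.5 kb, 50.2% lay in a gene body and 12.2% were beyond 200 kb.

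Among reticular-high peaks, the one of highest ratio lay at chr2:48734298-48734939, intergenic, 79.2 kb upstream of Acvr2a, which encodes a receptor for activins and BMPs. It held 238 counts in 91 of 357 nuclei, 18.9 CPM (95% interval 16.5 to 21.4), and 0 counts in the osteoblast-, chondrocyte- and mural-like classes. This was 37.5-fold above a pooled floor of 3 counts, and the exact 95% lower limit of the ratio was 30.3-fold. For peaks below with 0 counts in the classes compared, the minimum fold given is that lower limit. All peaks named by class were chosen for their high ratios, which favours empty comparison classes. The intervals and limits do not allow for that choice. Acvr2a RNA was 161 CPM (interval 135 to 191) in reticular-like nuclei and 33.6 CPM (interval 23.5 to 46.5) in the other stromal classes. The next peaks lay 105 kb from Mir133a-1hg with 220 counts and 110 kb from Gm36719 with 199 counts, again with 0 counts in the other stromal classes, and no UMI of either gene was seen in stromal-like nuclei.

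Osteoblast-high peaks of highest ratio, a choice that favours empty comparison classes, held 0 counts in the deep reticular-like class. The peak at chr10:111652263-111653127, 53.1 kb from the noncoding Gm30262, held 73 counts in 31 of 139 nuclei, 17.6 CPM (95% interval 13.8 to 22.1). It held 0 in the other stromal classes, so it was at least 66.9-fold higher. Repeat-masked bases made up 51.3% of its centre. The second, at chr14:61887711-61888620, 205 kb upstream of Dleu2, a noncoding host of microRNAs, was at least 64.1-fold higher. Dleu2 RNA was 398 CPM (interval 355 to 446) in osteoblast-like and 306 CPM (interval 275 to 340) in the other stromal nuclei. The third, at chr6:117265959-117266811, had Cxcl12 as nearest gene at 97.4 kb and was at least 58.5-fold higher (15.4 CPM (95% interval 11.9 to 19.7) from 64 counts). Cxcl12 encodes the chemokine that retains blood stem cells in marrow, and its RNA went the other way, at 127 CPM (interval 103 to 155) in osteoblast-like and 1949 CPM (interval 1869 to 2032) in the other stromal nuclei; Cxcl12 is a marker of the reticular gate.

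Chondrocyte-high peaks rested on 18 nuclei. The highest, at chr19:56934831-56935746 in an intron of Afap1l2, held 38 counts in 9 of 18 nuclei and 12 in the other stromal classes, a ratio of 48.7-fold (95% interval 24.9 to 102). Another, at chr7:117435656-117436584 in an intron of Xylt1, held 37 counts, 43.7-fold (95% interval 22.7 to 89.7) above the rest. Xylt1 encodes the xylosyltransferase that starts the sugar chains of cartilage proteoglycans, and its RNA was 629 CPM (interval 531 to 741) in chondrocyte-like and 83.1 CPM (interval 69.9 to 98.2) in the other stromal nuclei. The peak at chr1:158605412-158605908 in an intron of Astn1 had the same ratio, from 37 counts. These peaks held fewer counts in the class than the minimum over the classes compared. Counts in other stromal classes were thus needed for them to be measured. Each peak only just reached that minimum, so the minimum limited how high its ratio could be. How exclusive these peaks are therefore cannot be read.

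Mural-high peaks rested on 27 nuclei. Those named held 46, 25 and 28 counts in the class, under the minimum of 50. Counts in other stromal classes were thus needed for them to be measured, so how exclusive they are cannot be read. The peak at chr14:69088900-69089787, 59.2 kb from Gm41192, held 46 counts in 12 of 27 nuclei, 25.5-fold (95% interval 16.6 to 39) above the other stromal classes, but it also held 14 counts in chondrocyte-like and 21 in macrophage- or osteoclast-like nuclei. Next came a peak 51.7 kb from Hddc2, at 19.6-fold (95% interval 11.2 to 33.8), and one in an intron of Cacna1c, which encodes the main L-type calcium channel of smooth muscle, at 18.6-fold (95% interval 11.1 to 31). No RNA difference of the nearest gene could be read for these 3, which had 0 or 1 UMI of that gene in mural-like nuclei.

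Erythroid-high peaks of highest ratio, a choice that favours empty comparison classes, held 0 counts in the stromal classes. The peak at chr5:23922500-23923350, over an exon of Fam126a, held 185 counts in 46 of 69 nuclei, 156 CPM (95% interval 134 to 180). It held 0 in all 4 stromal classes, so it was at least 776-fold above them pooled. Peaks in Aff3 (chr1:38447359-38448226) and over an exon of Fntb (chr12:76908939-76909753) held 85 and 61 counts against 0, at least 352- and 251-fold higher. The nearest starts belonged to 2700038G22Rik, Gm16152 and Max, and RNA of Max, the partner of Myc, was 66 CPM (interval 31.7 to 121) in erythroid-like and 48.4 CPM (interval 39 to 59.3) in stromal-like nuclei.

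In granulocyte-like nuclei the peak at chr5:90695886-90696771, 55.2 kb upstream of Rassf6, held 60 counts in 23 of 74 nuclei and 0 in the stromal classes. It was thus at least 274-fold higher, and it held 14 counts in macrophage- or osteoclast-like nuclei. Peaks in Nubpl and Hdac4 held 52 and 50 counts against 1 stromal count each, ratios of 905-fold (95% interval 155 to 36406) and 870-fold (95% interval 149 to 35032), and the peak in Nubpl also held 21 counts in macrophage- or osteoclast-like nuclei. In B-lymphoid-like nuclei the peak at chr10:41385404-41386341 in an intron of Ak9 held 71 counts against 0, at least 306-fold higher. It was shared with macrophage- or osteoclast-like (32 counts) and granulocyte-like nuclei (14 counts). A B-lymphoid-high peak 56.8 kb from Mbip had a ratio of 612-fold (95% interval 164 to 5145), with Mbip RNA at 93.3 CPM (interval 40.3 to 184) against 11.6 CPM (interval 7.25 to 17.5), and one 138 kb from Cdc5l had a ratio of 848-fold (95% interval 146 to 34146).

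In macrophage- or osteoclast-like nuclei the highest ratio was at chr1:152536195-152537103, over an exon of Rgl1, an exchange factor for Ral GTPases, with 65 counts in 12 of 20 nuclei against 11 stromal counts, 124-fold (95% interval 65 to 261). One nucleus gave 20 of the 65 counts. Rgl1 RNA was 383 CPM (interval 273 to 521) against 81.5 CPM (interval 69.2 to 95.4) in stromal-like nuclei. Peaks in introns of Vps8 and of Cadm1, a cell adhesion gene, followed at 78.1-fold (95% interval 42.6 to 153) and 48.7-fold (95% interval 27.8 to 88.3), and Cadm1 RNA was 612 CPM (interval 472 to 782) against 244 CPM (interval 222 to 267).

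**Figure D3:**
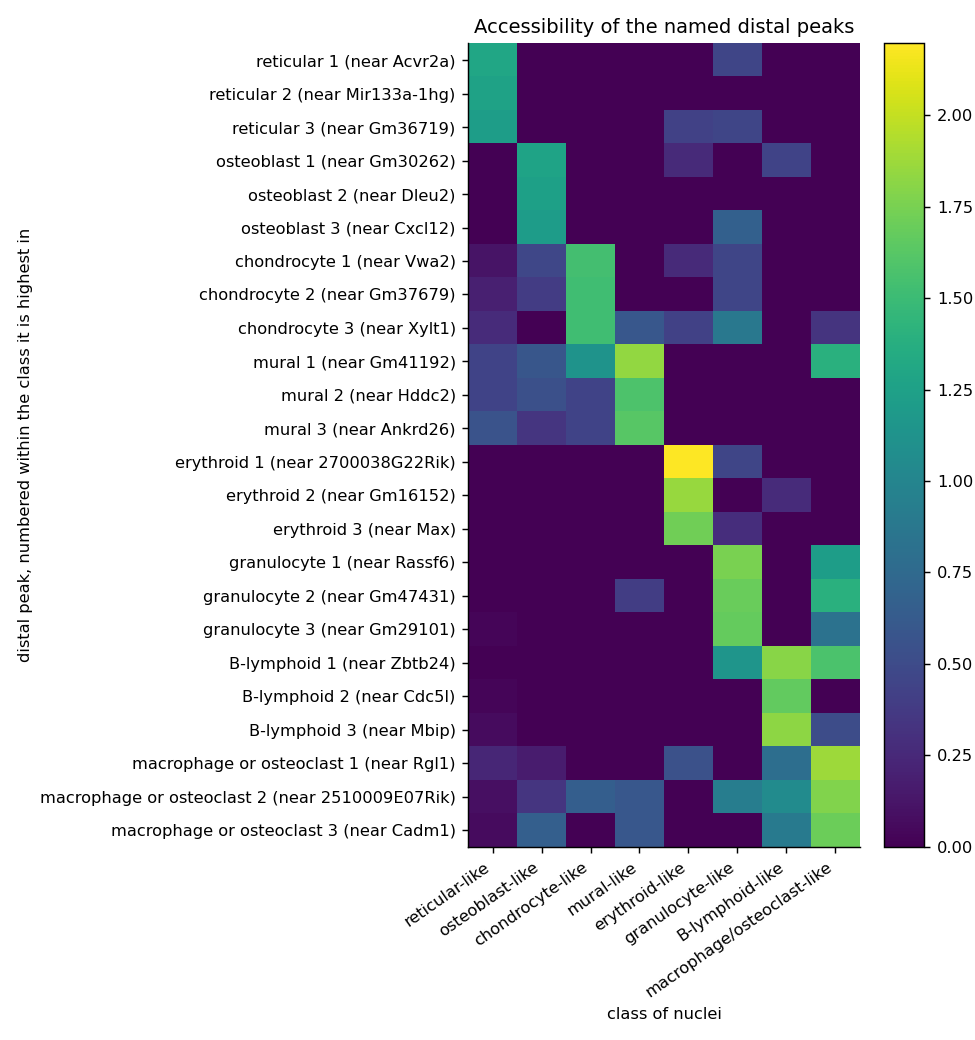
ATAC level, as log10 of CPM plus 1 (colour), of the 3 named class-high distal peaks of each class (rows) in the 8 marker-gated classes (columns). Each set of 3 is highest in the class it was chosen for, and the first mural-like, the first B-lymphoid-like and the first and second granulocyte-like peaks also carry 15.8 to 36.2 CPM in macrophage- or osteoclast-like nuclei. The peaks were chosen on these values.

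The 3 peaks farthest from any gene start among those with at least 50 counts over all nuclei lay 1410 kb from Rapgef2, 1404 kb from D3Ertd751e and 1352 kb from 4930590L20Rik, and held 56, 83 and 66 counts. The first held 13 counts in osteoblast-like nuclei (3.13 CPM, 1.67 to 5.35) and 2 in reticular-like ones (0.159 CPM, 0.0192 to 0.573). It stayed below the minimum of 50 counts over the classes, so no call was possible. The others were open in both classes with CPM intervals that overlapped. No blood class held more than 4 counts at any of them.

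Distal peaks gathered at few genes. The nearest gene start belonged to 6107 of 30364 genes on these chromosomes (20.1%), and 1460 genes (4.81%) were nearest to at least 10 distal peaks and together took 61.7% of the members. Protein-coding genes were nearest for 59.0% of members, although they make up 67.6% of the genes, and lincRNAs for 26.4% although they make up 16.4%. Of the members, 25.6% lay inside the body of their own nearest gene, 97.6% of them downstream of its start. Of those outside it, 48.2% lay downstream.

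The 10 genes nearest to most distal peaks were Tns3 (93 peaks), Nrp1 (91), Bmper (88), 4930488N15Rik (78), 9430078K24Rik (76), Rbms3 (73), Pappa (72), 4930435M08Rik (71), Setbp1 (70) and Gm9747 (64). Reticular-high peaks made up 24.6% of all distal peaks measured and 14.7% of all peaks. At Pappa, a protease that frees insulin-like growth factors from their binding proteins, 25 of 35 measured distal peaks were reticular-high. At Tns3, a focal adhesion protein, 23 of 48 were, at Bmper, a secreted BMP modulator, 15 of 31, and at Nrp1, a semaphorin and VEGF co-receptor, 12 of 31. Gm9747 and the noncoding 4930488N15Rik, 9430078K24Rik and 4930435M08Rik had no UMI, so their RNA gives no reading.

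For Pappa, summed over its 72 distal peaks, ATAC was 423 (412 to 435) CPM in reticular-like, 122 (112 to 134) in osteoblast-like and 119 (99.7 to 141) in chondrocyte-like nuclei, and Pappa RNA was 1278 (1202 to 1357), 45.7 (31.8 to 63.6) and 152 (106 to 211) CPM. Both levels were thus highest in reticular-like nuclei. Pappa and Tns3 were also the genes with most reticular-high distal peaks, which favours a high reticular-like ATAC sum. For Tns3, ATAC over 93 peaks was 518 (505 to 531) CPM in reticular-like, 201 (187 to 215) in osteoblast-like and 341 (308 to 377) in chondrocyte-like nuclei. Tns3 RNA was 676 (621 to 734) CPM in reticular-like and 526 (397 to 685) in macrophage- or osteoclast-like nuclei, intervals that overlapped.

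Osteoblast-high distal peaks were most frequent near Gm35097 (9), Gm32017 (8) and Robo2 (6 of 9 measured). Over all distal peaks measured the osteoblast-high share was 11.5%. Robo2 encodes a receptor for Slit guidance proteins. Its 50 distal peaks summed to 188 (175 to 202) CPM of ATAC in osteoblast-like and 48.6 (44.8 to 52.6) in reticular-like nuclei, and its RNA was 521 (471 to 575) against 53 (38.5 to 71.1) CPM. Chondrocyte-high peaks were most frequent near Atp10a, Msi2 and Gm47460, with 4 each. Msi2, an RNA-binding regulator of stem and progenitor cells, also had 4 B-lymphoid-high peaks, and its distal ATAC was 298 (267 to 331) CPM in chondrocyte-like, 277 (247 to 309) in B-lymphoid-like and 44.4 (40.8 to 48.2) in reticular-like nuclei. Msi2 RNA had the same order, at 755 (647 to 876), 746 (575 to 953) and 178 (151 to 209) CPM, the first pair overlapping. Robo2 and Msi2 were picked for their class-high distal peaks. That choice favours the order of their ATAC sums, which is therefore no separate result.

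In the smaller classes the counts per gene were low. Mural-high peaks were most frequent near 1810053B23Rik, Gpc6 and 4930405A10Rik, with 2 each. Erythroid-high ones were near A330074K22Rik (4), Plcl2 (3) and Agpat4 (3), and the RNA levels of Plcl2 and Agpat4 in erythroid-like nuclei were 482 and 297 CPM, against 42.2 and 22.9 CPM in reticular-like nuclei. Granulocyte-high peaks lay near Gm13986 (4), Dhrs3 (3) and Sp3os (3), B-lymphoid-high ones near 9430078K24Rik (6), Gm20544 (5) and Msi2 (4), and macrophage- or osteoclast-high ones near 9430078K24Rik, Dock4 and Elmo1, with 3 each. Dock4 and Elmo1 act in Rac activation and cell movement.

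Some developmental regulators were neighbours of many distal peaks and others of none. From fixed lists, 24 of 48 skeletal transcription factors, 4 of 16 blood factors and 16 of 25 signalling genes were nearest to any distal peak, and Sox9 was nearest to none. Of the same lists, 14 of 48 skeletal transcription factors (29.2%), 3 of 16 blood factors (18.8%) and 8 of 25 signalling genes (32.0%) were nearest to at least 10 distal peaks, where the share over all genes was 4.81%. These lists hold well-known genes and were not matched for gene length or gene density, and no test was made. Among the skeletal factors were Sox6 (49 distal peaks), Nfia (40), Tcf7l2 (34), Nfib (32), Tshz2 (29), Shox2 (26), Meis2 (19), Twist1 (16), Runx2 and Sox5 (13 each), Foxp1 (11) and Zeb2 (10). Among the blood factors were Bach2 (16) and Maf (15). The signals were Bmp2 (27), Bmp7 (26), Igf1 (23), Tnfsf11 (21), Kitl (16), Wnt5a (16), Cxcl12 (15) and Bmp5 (14).

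Secreted signals of the marrow niche differed in their reticular-high peaks, which made up 24.6% of all distal peaks measured. At Igf1, the insulin-like growth factor, 11 of 13 measured distal peaks were reticular-high, and summed ATAC over its 23 peaks was 158 (151 to 165) CPM in reticular-like, 111 (87.7 to 140) in mural-like, 28.4 (23.5 to 34) in osteoblast-like and 34.3 (24.4 to 47) in chondrocyte-like nuclei. Igf1 RNA was 413 (371 to 459), 144 (72.1 to 258), 18.3 (10 to 30.7) and 17.4 (4.73 to 44.5) CPM in the same order, so both readouts were high in the first pair and low in the second. At Kitl, the stem cell factor and a gate marker, 3 of 7 were reticular-high and the 16 peaks summed to 53.2 (49.2 to 57.4) CPM in reticular-like, 44.6 (30.1 to 63.6) in mural-like and 9.62 (6.87 to 13.1) in osteoblast-like nuclei.

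Cxcl12 had 15 distal peaks, all intergenic and downstream, from 50.3 to 125 kb. Summed ATAC was 134 (128 to 140) CPM in reticular-like, 58.9 (51.8 to 66.8) in osteoblast-like, 58 (41.2 to 79.2) in mural-like and 31.7 (22.2 to 43.9) in chondrocyte-like nuclei, while Cxcl12 RNA, which the gate used, was 2622, 127, 315 and 65.1 CPM. Peaks within this stretch did not share 1 pattern. The peak at 118 kb held 29.4 CPM in reticular-like and 1.68 CPM in osteoblast-like nuclei, and the one at 110 kb, the strongest, held 42.4 and 17.1 CPM. The peak at 97.4 kb held 0 of 12614409 counts in reticular-like nuclei, where 3 counts would be 0.238 CPM and the exact 95% upper limit is 0.292 CPM, and 15.4 CPM in osteoblast-like nuclei. At 103 kb the osteoblast-like level (11.3 CPM, 8.31 to 15) was also above the reticular-like level (4.76 CPM, 3.63 to 6.12). Of the 10 peaks measured, 5 were reticular-high and 1 osteoblast-high, where the shares over all distal peaks measured were 24.6% and 11.5%.

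**Figure D4:**
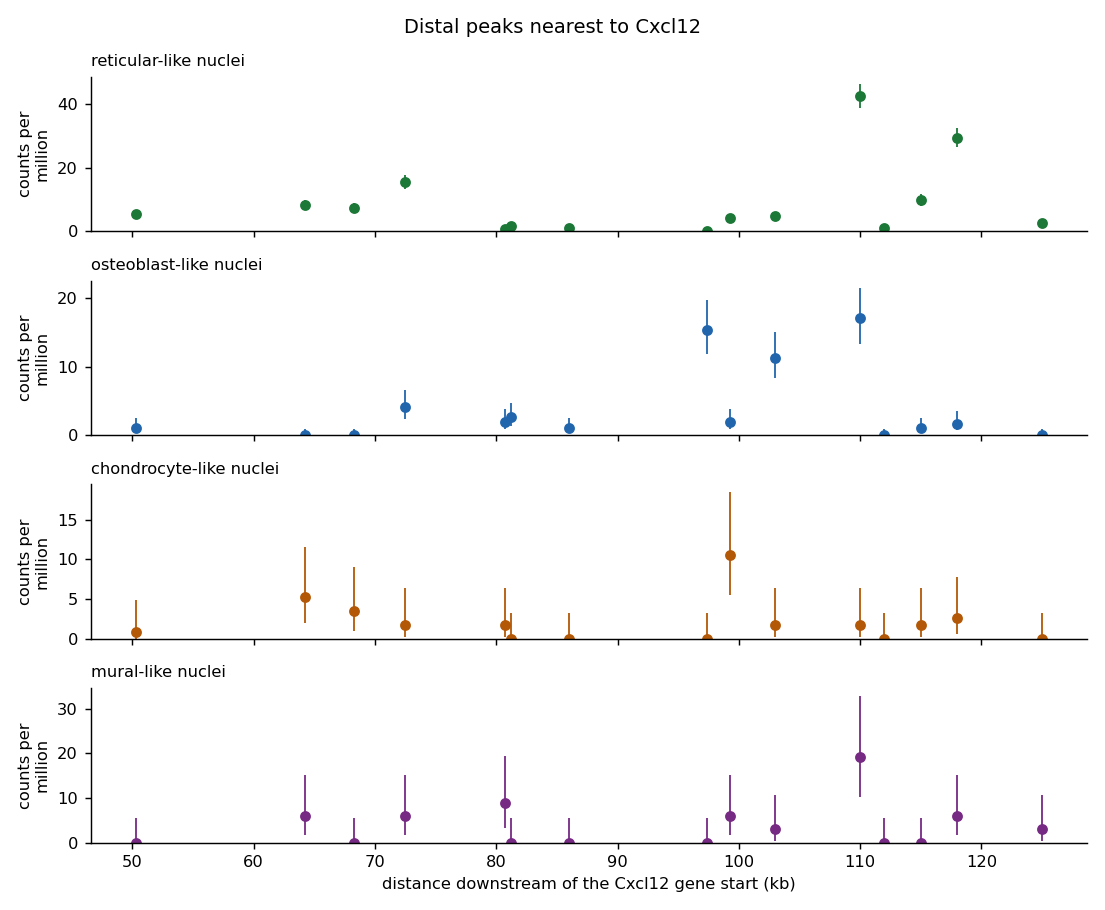
ATAC level (CPM, y axis, scaled per panel) of the 15 distal peaks of Cxcl12 by distance downstream of its start (kb, x axis), 1 panel for each stromal-like class. Bars are exact 95% counting intervals. The peaks at 110 and 118 kb are highest in reticular-like nuclei and the peak at 97.4 kb is seen in osteoblast-like nuclei alone among the stromal classes.

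At other signals the relation of distal ATAC and RNA varied. For Tnfsf11, which encodes the osteoclast-inducing ligand RANKL, the 21 distal peaks summed to 136 (130 to 143) CPM in reticular-like and 142 (131 to 154) in osteoblast-like nuclei, with overlapping intervals and 2 of 11 measured peaks reticular-high, while its RNA was 538 (490 to 591) against 36.6 (24.3 to 52.9) CPM. For Bmp2, an osteogenic ligand, 27 peaks summed to 26.1 (23.3 to 29.1), 89 (80.2 to 98.6) and 116 (97.3 to 138) CPM in reticular-, osteoblast- and chondrocyte-like nuclei, and its RNA stood at 26.5 (16.6 to 40.1), 82.3 (63.2 to 105) and 174 (124 to 236) CPM, the same order.

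Sox5 and Sox6, partners of Sox9 in cartilage, had distal ATAC highest in chondrocyte-like nuclei: 116 (97.3 to 138) CPM for Sox5 against 36.1 (30.5 to 42.3) in osteoblast-like nuclei, and 239 (211 to 269) CPM for Sox6 against 106 (96 to 116). Sox5 RNA was 551 (397 to 745) CPM in mural-like and 330 (260 to 413) CPM in chondrocyte-like nuclei, with overlapping intervals. Sox6 RNA, however, was far higher in erythroid-like nuclei (2536 (2289 to 2803) CPM) than in chondrocyte-like ones (339 (268 to 423)), while the distal ATAC of erythroid-like nuclei was 56.3 (43.7 to 71.6) CPM. Sox6 is also known as a regulator of red cell maturation. For Bach2, a B cell factor, 16 distal peaks summed to 174 (150 to 200) CPM in B-lymphoid-like and 52.6 (48.7 to 56.8) in reticular-like nuclei, beside RNA of 6343 (5821 to 6899) and 130 (107 to 157) CPM. For Runx2, a master factor of bone and a marker of the osteoblast gate, 0 of 13 distal peaks reached the minimum between stromal classes. Together they summed to 74.9 (59.8 to 92.6) CPM in chondrocyte-like and 21.9 (17.6 to 26.9) in osteoblast-like nuclei, whereas Runx2 RNA was 386 (310 to 475) and 1193 (1117 to 1273) CPM, the opposite order.

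Consensus words in the central 300 bases of class-high distal peaks differed between classes. The GATA word was held by 53.2% of the 109 erythroid-high distal peaks, against 12.8% of distal peaks measured, 12.2% of all peaks on these chromosomes and 29.9% of all erythroid-high peaks. The AP-1 word was held by 48.8% of chondrocyte-high, 42.7% of macrophage- or osteoclast-high and 35.2% of mural-high distal peaks, against 20.2% of distal peaks measured, 20.4% of all peaks and 14.5% of reticular-high distal peaks. The homeobox word was held by 22.1% of osteoblast-high ones (9.45% of distal peaks measured, 7.92% of all) and the RUNX word by 49.7% (39.1% and 32.4%). Granulocyte-high and chondrocyte-high distal peaks held the RUNX word in 45.8% and 42.5%, and the remaining classes in 21.2% to 35.1%.

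In reticular-high distal peaks the CEBP word stood at 27.5% and the SOX words at 45.6%, where all distal peaks measured had 21.1% and 39.5% and all peaks 15% and 34.3%. Granulocyte-high ones held the CEBP word in 28.8% and the PU.1 word in 16.9% (4.17% of distal peaks measured, 5.89% of all). Macrophage- or osteoclast-high ones held the PU.1 word in 15.5%. B-lymphoid-high ones held the E-box word in 38.4% (18.9% and 19.9%) and EBF in 3.94% (1.75% and 1.51%). Mural-high ones held EBF more often, in 4.85%. The CTCF motif, of the protein that anchors loops in most cells, was found in 0.215% of reticular-high and 0.305% of osteoblast-high distal peaks, against 2.81% of those measured and 3.04% of all peaks. It was found in 6.81% of B-lymphoid-high, 4.60% of macrophage- or osteoclast-high and 3.67% of erythroid-high distal peaks. NFI words were too rare to compare, at 0.123% of distal peaks measured. Short words depend on base composition, and the median GC content of the sets ran from 43.7% in reticular-high to 51.0% in erythroid-high distal peaks. Over all peaks high in a class, near or far, the AP-1 word stood at 46.6% for the chondrocyte-like and the homeobox word at 18.9% for the osteoblast-like class, near the distal values, unlike the GATA word of the erythroid-like class.

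To ask how often the nearest gene differed the same way, RNA was compared between classes for genes with at least 20 UMIs over the classes compared, leaving out gate markers, with 0.5 counts added. The nearest gene had no such value for 1672 of the 2789 reticular-high distal peaks. Of the other 1117 peaks, 632 (56.6%) had a nearest gene at least 2-fold higher in reticular-like nuclei and 57 (5.10%) one at least 2-fold lower. The background was 20.8% of all genes and 40.4% of the nearest genes of all distal peaks measured, and with each gene counted once the share was 44.3% of 555. The 40.4% was counted per peak, so genes nearest to many distal peaks weighed more in it. Among genes nearest to distal peaks but to no reticular-high one, each counted once, the share was 20.6% of 746.

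For osteoblast-high distal peaks the nearest gene was at least 2-fold higher for 146 of 551 (26.5%; background 5.84% of all genes, 9.99% for all distal peaks measured) and at least 2-fold lower for 125 (22.7%). For chondrocyte-high ones it was higher for 57 of 208 (27.4%; background 13.8%) and for mural-high ones for 13 of 70 (18.6%; background 15%). On the blood side, it was higher for 27 of 55 erythroid-high (49.1%; background 20.7%), 15 of 97 granulocyte-high (15.5%; background 10.9%), 49 of 127 B-lymphoid-high (38.6%; background 32.2%) and 39 of 126 macrophage- or osteoclast-high peaks (31.0%; background 30.9%). The macrophage- or osteoclast, B-lymphoid and mural shares lay near these backgrounds over all genes. They were above the shares for the nearest genes of all distal peaks measured, which were 15.5%, 17.6% and 9.93%, as were the chondrocyte, erythroid and granulocyte shares (11.9%, 9.62% and 4.59%). At least 2-fold lower were 26.4% for chondrocyte-, 17.1% for mural-, 27.3% for erythroid-, 28.9% for granulocyte-, 21.3% for B-lymphoid- and 15.9% for macrophage- or osteoclast-high peaks. Over all genes these lower shares were 23.8%, 20.1%, 39.6%, 40.5%, 25.9% and 25.1%. For granulocyte-high peaks the nearest gene was thus more often lower than higher.

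Nearer class-high peaks more often had a nearest gene with higher RNA in the blood classes and in the chondrocyte- and mural-like classes. At 1 to 50 kb and within 1 kb, the shares were 60.5% and 74.8% (erythroid-like) and 53.2% and 59.2% (macrophage- or osteoclast-like). For the chondrocyte-like class they were 33.3% and 48.0%, and for the mural-like class 32.6% and 38.9%. The osteoblast-like shares were 22.0% and 32.7%, beside 26.5% for distal peaks. In the reticular-like class the shares were 50.7% and 58.8%, beside 56.6% for distal peaks, so distance made little difference there.

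In the reticular- and osteoblast-like classes, the more class-high distal peaks a gene had, the more often its RNA was higher in that class. In the reticular-like class, the share of genes at least 2-fold higher was 20.6% of 746 genes with no reticular-high distal peak, 35.1% of 328 with 1, 54.3% of 186 with 2 to 4 and 73.2% of 41 with 5 or more. In the osteoblast-like class it was 5.75% of 939, 13.8% of 246, 34.3% of 105 and 54.5% of 11. The chondrocyte, erythroid and granulocyte shares also went up with the number, but for B-lymphoid-like nuclei they were 22.2% of 1250 with none, 43.2% of 81 with 1 and 28.6% of 21 with 2 to 4, and for macrophage- or osteoclast-like nuclei 18.3% of 1249, 33.3% of 78 and 28.6% of 21. In the mural-like class they were 11.0% of 1233, 19.7% of 66 and 0 of 2. Genes with many distal peaks have more chances of a high one, so genes with at least 5 measured distal peaks were also ordered by the percent that was class-high. The reticular share was then 20% of 95 genes with none, 44.8% of 201 with up to 50% and 65.8% of 38 with over 50%. For the osteoblast-like class it was 3.23% of 155, 18.5% of 168 and 27.3% of 11.

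**Figure D5:**
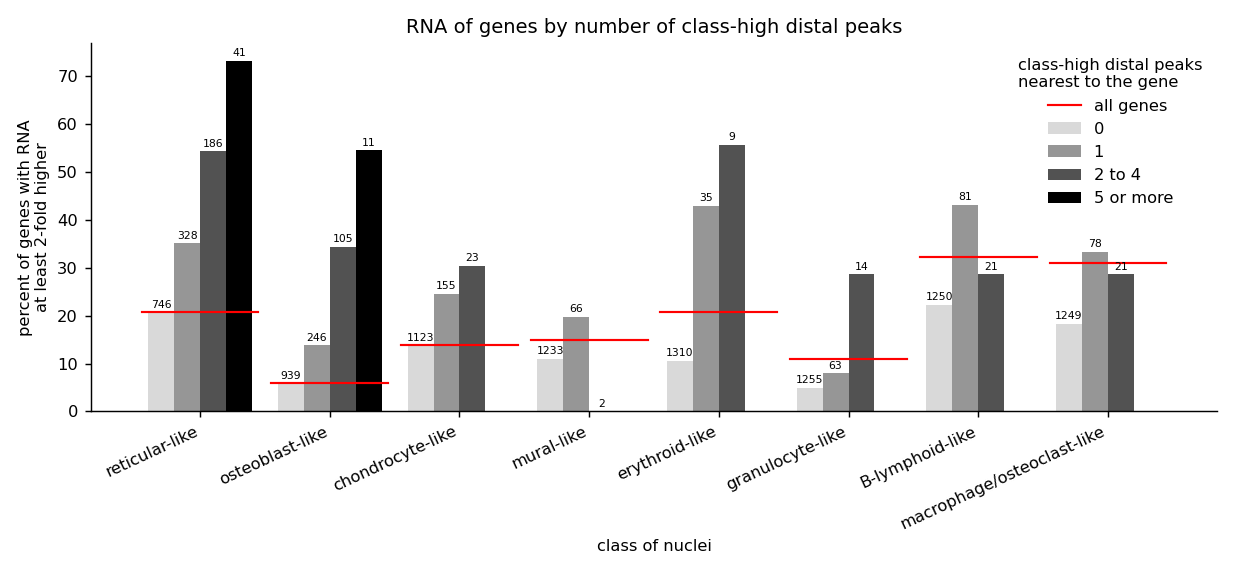
Percent of nearest genes with RNA at least 2-fold higher in a class (y axis), for each class (x axis) and number of class-high distal peaks the gene is nearest to (grey shades, with the number of genes above each bar). Red lines give the share of all genes. The reticular bars rise from 20.6% to 73.2% and the osteoblast bars from 5.75% to 54.5%.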

How the data were processed

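Nuclei of tdTomato+ femoral marrow cells gave 1 RNA and 1 ATAC library. The deposited matrix held raw counts per barcode, produced by the authors in Cell Ranger ARC (version 2.0.0) against the mm10 genome plus transgene contigs, as UMIs of 32293 genes and ATAC transposition counts of 203545 peaks called on the pooled library. A separate deposited list held 153981 intervals. The members and lists were chosen with earlier results of these data known, and the gate limits were set after the data were seen.

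Distances ran from each peak to the gene intervals of the feature table (columns 5 and 6). Gene bodies and types came from GENCODE M21 and bases from RefSeq GRCm38.p6, and the last peak of each chromosome lay inside that sequence. A barcode counted as a nucleus from 500 UMIs and 1000 ATAC counts upward, where no more than 10% of its UMIs were mitochondrial. A nucleus passed a gate with at least 4 UMIs of 2 genes of a marker list and a summed level, less that of cell-free barcodes, above 3000 CPM (reticular), 5000 (osteoblast), 8000 (chondrocyte) or 2000 (others) and at least 6 times the cell-free level. Nuclei past several gates were kept where 1 led at least 3-fold. No doublet caller was run, and classes under 15 nuclei were not compared. Counts were summed per class. Sums carry exact Poisson and shares exact Clopper-Pearson 95% intervals, which cover counting error only, and no test between groups was possible with 1 library.

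Regions were named by rule: per class the 3 class-high distal peaks of highest ratio, the 3 with most counts and the 3 farthest ones with at least 50 counts. Genes were the nearest genes of these, the 10 nearest to most distal peaks, per class the 3 nearest to most class-high ones, and listed regulators nearest to at least 10, a few of which are not reported here. Msi2, Cadm1, Xylt1 and other host or nearest genes follow from these rules, while genes with most peaks in their bodies and the per-locus sums were chosen after the values were seen. The calling was tested on simulated data with known folds before use. Python 3.11.15 with numpy 2.4.6, pandas 2.3.3 and scipy 1.17.1 was used.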

Additional observations from a re-analysis of the deposited data

Results flagged for a closer look

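Nuclei and barcodes outside the compared classes also carried distal counts. Barcodes too poor to be nuclei had 10.2% of their ATAC counts in distal peaks, and the 637 nuclei past no gate had 10.3%, both close to the 10.4% over all nuclei. Classes too small to compare had lower shares, with 8.13% in 9 tenocyte- or synovial-like nuclei (exact 95% interval 8.04% to 8.22%) and 6.08% in 5 endothelial-like nuclei (5.96% to 6.20%). These values stand apart from the comparisons above, and no test was made of them.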

How the results depend on the processing

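No paired analysis was possible because there was 1 library of each kind, and for the same reason no replicate could be left out. In the order of distal share of counts, distal peaks high in a stromal class, distal peaks high in a blood class, and percent of their nearest genes with higher RNA on the stromal and the blood side, the values were 10.4%, 4657, 721, 43.6% and 32.1%. With a distance of 25 kb they were 19%, 7896, 1767, 40.5% and 41.8%. With 100 kb the first 4 were 4.18%, 2079, 192 and 47.9%, and with distance taken to gene bodies (16705 members) all 5 were 3.93%, 1803, 170, 40.7% and 25%. A mitochondrial limit of 20% gave 10.4%, 8562, 2137 and 34.8% for the first 4, and no limit, which raised the chondrocyte-like class to 158 and the macrophage- or osteoclast-like class to 223 nuclei, gave 10.1%, 12317, 4170, 34.9% and 26.6%. Minima of 1000 UMIs and 5000 ATAC counts gave a share of 10.5%. Leaving out the 5% of nuclei with most ATAC counts gave a share of 10.2% and a stromal RNA percent of 47.4%. Counted as peaks with at least 1 count the share was 11.8%. Without the 3 distal peaks with most counts, an alternative chosen after seeing the data, it was 10.3%.

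The stromal count, blood count and stromal RNA percent were 2843, 440 and 49.9% with a stricter gate, 8120, 1120 and 38.0% at 2-fold, 2107, 422 and 46.0% at 8-fold, 10039, 2128 and 37.5% with a minimum of 20 counts, 1964, 148 and 54.0% with a minimum of 100, and 1731, 406 and 46.6% where a class was set against the highest other class. The blood RNA percent was 39.0% at 8-fold and 24.1% with the minimum of 100. Taking the nearest gene with at least 20 UMIs gave a stromal RNA percent of 39.2%. The causes of these shifts were not tested. The share of class-high peaks was above that of all peaks for distal reticular and osteoblast peaks under all 10 alternatives that change it, for mural peaks under 8 and for chondrocyte peaks under 6, and below it for each blood class under all 10. So the chondrocyte and mural shares changed sides of the background with the setting. Depth limits the mural-, macrophage- or osteoclast- and granulocyte-like classes most, which held the fewest ATAC counts.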
